A study of Homo sapiens with 6 samples.

Results

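Interferon-stimulated genes were followed in DLD-1, a human line of epithelial cells from a colorectal adenocarcinoma, after TGF-β together with TFA (a flavone extract of Abelmoschus manihot, a medicinal plant) or TGF-β alone. The 34 genes were taken by name from the deposited table of 31016 genes, and each of the 34 had a row. TGF-β was given to all 6 libraries, 3 with TFA (TGF-β + TFA 1 to 3) and 3 without it (TGF-β 1 to 3), and the labels put treatment at 24, 25 and 26 hours for libraries 1, 2 and 3 of either group, while the design text names 24 hours. The study asked whether TFA alters the migration and apoptosis of TGF-β-treated cells. Cells without TGF-β and cells given interferon were not analysed here, so neither the effect of TGF-β itself nor the response of these genes to interferon in this line was measured. All cells were of 1 line, and no label says that the libraries came from separate cultures, so p-values measure only the spread between these libraries.

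Interferons are secreted proteins that cells release when they sense foreign nucleic acid. They bind receptors whose kinases JAK1 and TYK2 phosphorylate STAT proteins, and these join IRF9 in a complex that binds a DNA element upstream of interferon-stimulated genes. The products of those genes block virus entry, bind or degrade RNA, tag proteins with ISG15 and amplify sensing, and many are also made at a basal level in cancer cells.

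The element bound by that complex has a core of GAAA, any 2 bases, then GAAA. This core was searched on both strands of the RefSeq promoter windows (GRCh38.p14, 250 bases before to 50 after a gene's start), and no other motif was searched. Windows existed for 27 of the 34 genes, and 20 of these 27 (74.1%) had the core in at least 1 window, against 4.38% of all 27305 symbols with a window. A match is a description of these letters, and a window without one draws nothing about the factor. The cores below come from the 4 abundant genes ISG15, IFITM3, IFI6 and IFIT5, from IFIT1, and from 3 scarce genes, RSAD2, BST2 and IFI44L, to show that genes at opposite ends of the expression range carry it. Each is read 5′ to 3′ on the gene's strand, with 12 bases either side and the core in capitals; TTTC marks a core on the other strand.
ISG15 (chr1:1013378-1013411, + strand, core 107 bases upstream): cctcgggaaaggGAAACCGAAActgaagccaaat
IFITM3 (chr11:320874-320907, − strand, core 35 bases upstream): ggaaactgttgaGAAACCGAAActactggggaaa
IFI6 (chr1:27672286-27672319, − strand, core 115 bases upstream): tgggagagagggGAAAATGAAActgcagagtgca
IFIT5 (chr10:89414511-89414544, + strand, core 45 bases upstream): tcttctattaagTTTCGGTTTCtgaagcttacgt
IFIT1 (chr10:89392495-89392528, + strand, core 116 bases upstream): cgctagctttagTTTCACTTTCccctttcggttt
RSAD2 (chr2:6877620-6877653, + strand, core 145 bases upstream): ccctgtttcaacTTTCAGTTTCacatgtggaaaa
BST2 (chr19:17405739-17405772, − strand, core 130 bases upstream): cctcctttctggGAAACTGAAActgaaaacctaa
IFI44L (chr1:78620363-78620396, + strand, core 73 bases upstream): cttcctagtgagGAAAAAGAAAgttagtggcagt
The IFI44L window held the same 34 bases a second time, 164 bases upstream of the start. Of genes with a mean of at least 10 FPKM (fragment counts corrected for transcript length and library total), 5 of 5 with a window had the core. It was found in 7 of 10 genes at 1 to 10 FPKM and in 8 of 12 genes below 1 FPKM. The 7 genes with a window and no match were HERC6, IRF1, OAS1, IRF9, XAF1, IFI35 and SAMHD1.

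The libraries held 60361756 to 68745953 estimated counts and 23096 to 24159 genes above 0, and 32 to 34 of the 34 interferon-stimulated genes were above 0 in each. Library TGF-β + TFA 3 stood apart along transcript length, as inferred from counts and FPKM. Its log2 deviation from the mean of 6 libraries had a median of 0.36 in the tenth of genes with the shortest inferred length. In the tenth with the longest inferred length the median was -0.33. In the other 5 libraries these medians lay between -0.12 and 0.10 and between -0.16 and 0.20. Per library, 1032 to 1271 genes stood at a count of 4, against 601 to 685 at a count of 3, so 1 fragment may add more than 1 count and the totals may overstate depth. Epithelial markers fitted the label, with EPCAM at 202, 199.6 and 186 FPKM in TGF-β + TFA libraries and 210, 201 and 203 FPKM in TGF-β libraries. KRT8, KRT18, KRT20, CDH1, CDH17 and CDX2 were also expressed, while VIL1, LGALS4 and GPA33 lay below 1 FPKM throughout. Of 10 haematopoietic markers, 7 had a row, and their summed level was 0.346 to 0.611 FPKM with TFA and 0.410 to 0.582 FPKM without. CD14, at 26 to 55 counts, and CD68 were above 0 in every library, while FCGR3A was listed at 0 in 5 of the 6 libraries. Fibroblast markers summed to 0.389, 1.78 and 2.37 FPKM with TFA and 0.0524, 0.312 and 0.361 FPKM without, with COL3A1, DCN and LUM listed at 0 in TGF-β + TFA 1 and in the TGF-β libraries, and LUM also in TGF-β + TFA 2. All 6 fibroblast markers tested had fitted log2 fold changes above 0, and 0 were called. COL1A1 (2.93), COL1A2 (2.85) and PDGFRA (3.39) had an unadjusted p under 0.05 in edgeR. Endothelial markers summed to 2.04 to 2.38 FPKM with TFA and 1.55 to 1.99 FPKM without. The part of these markers in the results on interferon-stimulated genes was not tested. In such bulk libraries, fewer cells expressing a gene and less RNA per cell cannot be told apart.

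No interferon-stimulated gene passed the test for a change with TFA. IFITM3, IFITM2 and ISG15 were abundant in both groups, the classical antiviral genes MX1, OAS2, RSAD2 and IFI44L were scarce in both, and 24 of the 32 genes tested had a 95% interval that lay wholly within a 2-fold change either way. In edgeR's quasi-likelihood test with Benjamini-Hochberg adjustment over 18265 genes, 0 of 32 genes had an adjusted p under 0.05 (lowest 0.9997), where 0.0109% of all genes tested were called. At an unadjusted p under 0.05 the count was also 0 of 32, against 1.83% of all genes. DESeq2 called 0 of 32, against 0.0712% of all genes, and placed 1 of them, IRF9, at an unadjusted p under 0.05. IFI44L and XAF1 were too low to be tested.

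The fitted log2 fold changes (TGF-β + TFA over TGF-β) had a median of -0.060 over the 32 genes and 0.011 over all genes tested. They lay above 0 for 13 genes and below 0 for 19, or 40.6% above 0 against 51.9% of all genes. They ran from -0.87 for IRF9 to 0.84 for IFI44, and their median size without sign was 0.10, against 0.16 over all genes. In 12 genes the interval lay within 1.5-fold either way, namely IFIT1, IFIT2, IFIT5, IFITM2, IFITM3, USP18, HERC6, MX2, PARP9, IRF1, IRF7 and SAMHD1. In 8 genes it reached past 2-fold, so that, at this depth and spread, a change of that size could not be told from none: IFI27, IFI35, IFI44, ISG20, RSAD2, BST2, SAMD9 and IRF9. On TMM-scaled CPM (counts corrected for library total), 0 of 32 genes had all TFA libraries above all TGF-β libraries (4.58% of all genes did), and 1 of 32, IRF9, had all TFA libraries below (3.33% of all genes did).

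**Figure D1:**
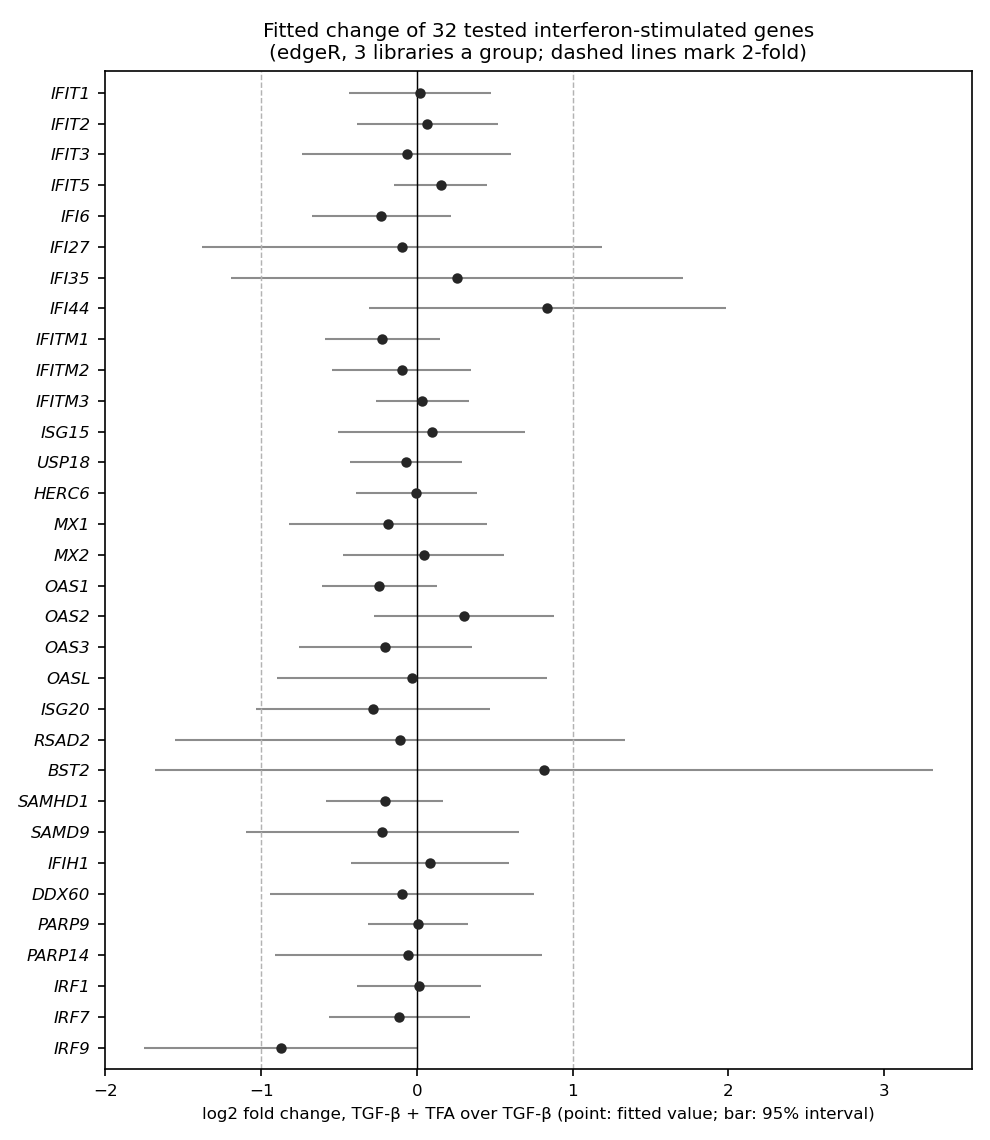
Fitted log2 fold change of the 32 interferon-stimulated genes tested, TGF-β + TFA over TGF-β (edgeR, 3 libraries a group). Points are fitted values, bars are 95% intervals and dashed lines mark 2-fold; every bar crosses 0, and 8 of them reach past a dashed line.

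The genes spanned levels from traces to about 94 FPKM. Of the 34, 6 averaged at least 10 FPKM over the 6 libraries (IFITM3, IFITM2, ISG15, IFITM1, IFI6 and IFIT5), 13 lay at 1 to 10 FPKM, 12 at 0.1 to 1 FPKM and 3 (RSAD2, IFI44L and XAF1) below 0.1 FPKM. The median over all 34, which include the untested IFI44L and XAF1, was 1.92 FPKM. Over all genes tested, a set without such low genes, it was 1.602 FPKM. The summed level of the 34 genes was 320, 318 and 334 FPKM in TGF-β + TFA libraries and 326, 353 and 335 FPKM in TGF-β libraries. Between 73.8% and 82.7% of it, by library, came from the 5 genes with the highest mean over the 6 libraries.

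**Figure D2:**
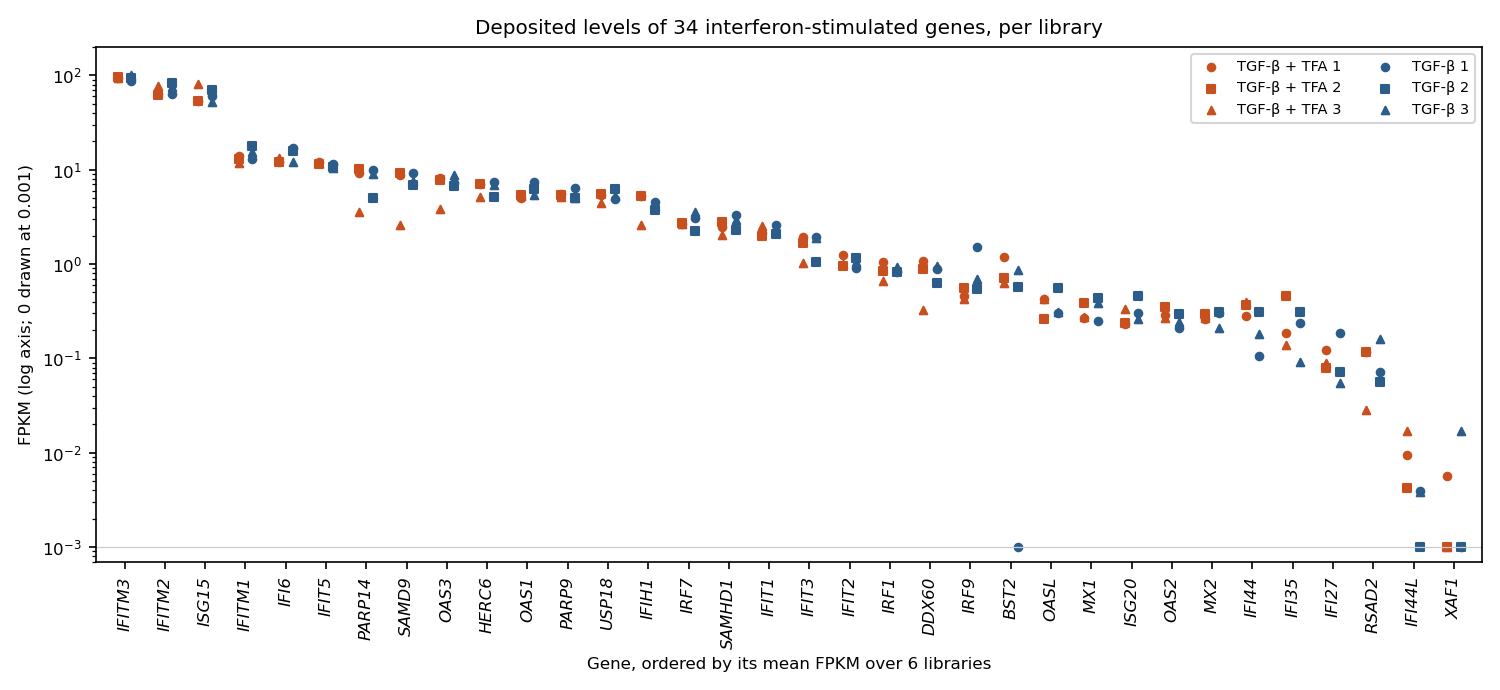
Deposited FPKM of the 34 genes in each library on a log axis, ordered by their mean; TGF-β + TFA libraries are orange and TGF-β libraries blue, and a value of 0 is drawn at 0.001. Orange and blue points overlap in all genes other than IFIT5, OAS1 and IFI44L, and TGF-β + TFA 3 lies low in SAMD9, PARP14, OAS3, IFIH1 and DDX60.

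IFITM proteins sit in membranes and hinder virus entry. They were the most abundant family, and their levels with and without TFA overlapped. IFITM3 (chromosome 11, 319676 to 327537 in the deposited table) had 93.6, 95.5 and 93.0 FPKM in TGF-β + TFA libraries and 86.6, 94.7 and 101 FPKM in TGF-β libraries, a log2 fold change of 0.036 (SE 0.13, 95% interval -0.26 to 0.34). IFITM2 had 64.2, 61.5 and 76.5 FPKM with TFA and 63.6, 84.0 and 75.7 FPKM without, a change of -0.098 (SE 0.19). IFITM1 had 14.0, 13.1 and 11.7 FPKM with TFA and 12.96, 17.7 and 15.5 FPKM without, a change of -0.22 (SE 0.16, interval -0.59 to 0.15). No member of the family separated the groups. IFITM1 and IFITM2 share 351 exonic bases on 1 strand in the GENCODE 29 annotation, and 37.0% of the 75-base words of the longest IFITM1 transcript also occur in IFITM2, so reads may have been split between them. Their summed counts gave a change of -0.11 (interval -0.54 to 0.32), and those of the 3 genes gave -0.043.

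ISG15 is a ubiquitin-like protein that is joined to other proteins, USP18 removes it and dampens receptor signalling, and HERC6 serves as a ligase for it in the mouse. ISG15 (chromosome 1, 1001138 to 1014540) had 53.0, 53.1 and 81.2 FPKM in TGF-β + TFA libraries and 60.2, 70.4 and 51.7 FPKM in TGF-β libraries. The groups overlapped, and the highest of the 6 values was that of TGF-β + TFA 3. Its fitted change was 0.094 (SE 0.26, interval -0.51 to 0.69), and without TGF-β + TFA 3 it was -0.24. USP18 had 5.35, 5.58 and 4.44 FPKM with TFA and 4.89, 6.28 and 5.26 FPKM without, a change of -0.072 (SE 0.15). It shares 18.3% of the 75-base words of its longest transcript with USP41, which held 0 to 14 counts per library. HERC6 had 6.99, 7.03 and 5.08 FPKM with TFA and 7.46, 5.10 and 6.89 FPKM without. Its change was -0.0029 (SE 0.17), with 1 low library in each group.

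IFIT proteins bind RNA ends that lack the host's modifications, and their 4 genes lie in 1 cluster on chromosome 10. IFIT5 stood above the others, with 12.2, 11.61 and 11.9 FPKM in TGF-β + TFA libraries and 11.58, 10.8 and 10.5 FPKM in TGF-β libraries, a log2 fold change of 0.15 (SE 0.13, interval -0.14 to 0.45). In these FPKM values the groups did not overlap, by a narrow margin and with TFA higher, whereas in TMM-scaled CPM the groups overlapped. IFIT1 had 2.13, 2.00 and 2.55 FPKM with TFA and 2.61, 2.09 and 2.12 FPKM without, a change of 0.018 (SE 0.20, interval -0.44 to 0.47). The highest IFIT1 value of each group lay above both lower values of the other. IFIT2 averaged 1.06 ± 0.16 FPKM with TFA and 1.04 ± 0.12 FPKM without, and IFIT3 averaged 1.54 ± 0.47 and 1.63 ± 0.50 FPKM (SD, n = 3 each). The fitted log2 fold change of IFIT2 moved little when the counts of the overlapping gene AL353751 were added, from 0.066 alone to 0.069 summed.

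The IFI genes ranged from over 10 FPKM to traces. IFI6, which codes for a small membrane protein that restrains cell death and flavivirus replication, had 12.05, 12.1 and 13.3 FPKM in TGF-β + TFA libraries and 17.1, 15.9 and 11.99 FPKM in TGF-β libraries. TGF-β 3 was the lowest of the 6 and the other TGF-β libraries the highest, and the fitted change was -0.23 (SE 0.19, interval -0.67 to 0.22). IFI27, a mitochondrial protein gene often used as a blood marker of interferon, was scarce at 0.121, 0.0782 and 0.0895 FPKM with TFA and 0.184, 0.0717 and 0.0549 FPKM without. It rested on 18 to 61 counts, and its change of -0.096 had an SE of 0.55. IFI44 had the highest fitted change, 0.84 (SE 0.49, interval -0.31 to 1.99, edgeR unadjusted p 0.129). Its counts were 40, 54 and 57 with TFA and 17, 48 and 28 without. The change was 0.52 without TGF-β 1, 1.31 without TGF-β 2 and 0.64 without TGF-β + TFA 3. IFI44L, its neighbour on chromosome 1, had 8, 3 and 12 counts with TFA and 4, 0 and 3 without. A count of 0 allows up to 3 for counting error alone if each fragment adds 1 count, and more if a fragment adds several.

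MX1 and MX2 are dynamin-like GTPases that trap viral particles, and OAS enzymes make short oligoadenylates that switch on RNase L. OAS1 and OAS3 were expressed at several FPKM, and MX1, MX2, OAS2 and OASL below 1 FPKM in every library. OAS1 had 5.06, 5.42 and 5.29 FPKM in TGF-β + TFA libraries and 7.38, 6.30 and 5.44 FPKM in TGF-β libraries, with a fitted change of -0.24 (SE 0.16, interval -0.61 to 0.13). In these FPKM values the groups did not overlap, by a narrow margin, whereas in TMM-scaled counts they did. OAS3 had 8.21, 7.70 and 3.80 FPKM with TFA and 7.15, 6.74 and 8.86 FPKM without, a change of -0.20 (SE 0.24) that was 0.026 without TGF-β + TFA 3. MX1 had 0.266, 0.383 and 0.277 FPKM with TFA and 0.247, 0.440 and 0.385 FPKM without, a change of -0.18 (SE 0.27). Among the 11 genes grouped as MX, OAS and other antiviral effectors, 3 had fitted changes above 0 and 8 below 0, with a median of -0.18 and 0 called.

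Of the other effectors, SAMD9 is a large cytoplasmic protein that limits poxviruses, and it was low in 1 library. It had 8.77, 9.17 and 2.58 FPKM in TGF-β + TFA libraries and 9.14, 6.93 and 7.67 FPKM in TGF-β libraries. Its change was -0.22 (SE 0.38, interval -1.10 to 0.66) with all libraries and 0.14 without TGF-β + TFA 3. SAMHD1, which degrades the building blocks of DNA, averaged 2.43 ± 0.38 FPKM with TFA and 2.85 ± 0.53 FPKM without (SD, n = 3 each). ISG20, an exonuclease, averaged 0.269 ± 0.057 FPKM with TFA and 0.339 ± 0.103 FPKM without (SD, n = 3 each). BST2, the tetherin that holds budding virus at the surface, had 89, 55 and 47 counts with TFA and 0, 47 and 69 counts without. Its change of 0.82 (SE 1.07) rested on the 0 in TGF-β 1 and was 0.23 without that library. RSAD2, which codes for viperin, had 10 to 54 counts per library, lowest in TGF-β + TFA 3.

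IFIH1 is the RNA sensor MDA5, DDX60 a helicase that aids such sensing, and PARP9 and PARP14 ADP-ribosyltransferase relatives encoded near each other on chromosome 3. PARP14 had 9.33, 10.1 and 3.54 FPKM in TGF-β + TFA libraries and 9.86, 4.98 and 9.04 FPKM in TGF-β libraries, a change of -0.054 (SE 0.37). PARP9 was even across libraries, at 5.56, 5.42 and 5.14 FPKM with TFA and 6.33, 5.00 and 5.07 FPKM without, a change of 0.0076 (SE 0.14, interval -0.32 to 0.33). In PARP14, TGF-β + TFA 3 and TGF-β 2 thus lay far below the other libraries of their groups. In PARP9 the same libraries had the lowest FPKM of their groups by a narrow margin only. IFIH1 had 5.27, 5.26 and 2.62 FPKM with TFA and 4.51, 3.78 and 4.15 FPKM without, so that TGF-β + TFA 3 was the lowest and the other TFA libraries the highest. Its change was 0.084 (SE 0.22) with all libraries. Without TGF-β + TFA 3 it was 0.30, with an unadjusted p of 0.0429 and an adjusted p of 0.999 in edgeR. The IFIH1 change was -0.051 without TGF-β + TFA 1 and also without TGF-β + TFA 2. DDX60 had 1.08, 0.895 and 0.328 FPKM with TFA and 0.882, 0.624 and 0.950 FPKM without, a change of -0.095 (SE 0.36) that was 0.23 without TGF-β + TFA 3.

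**Figure D3:**
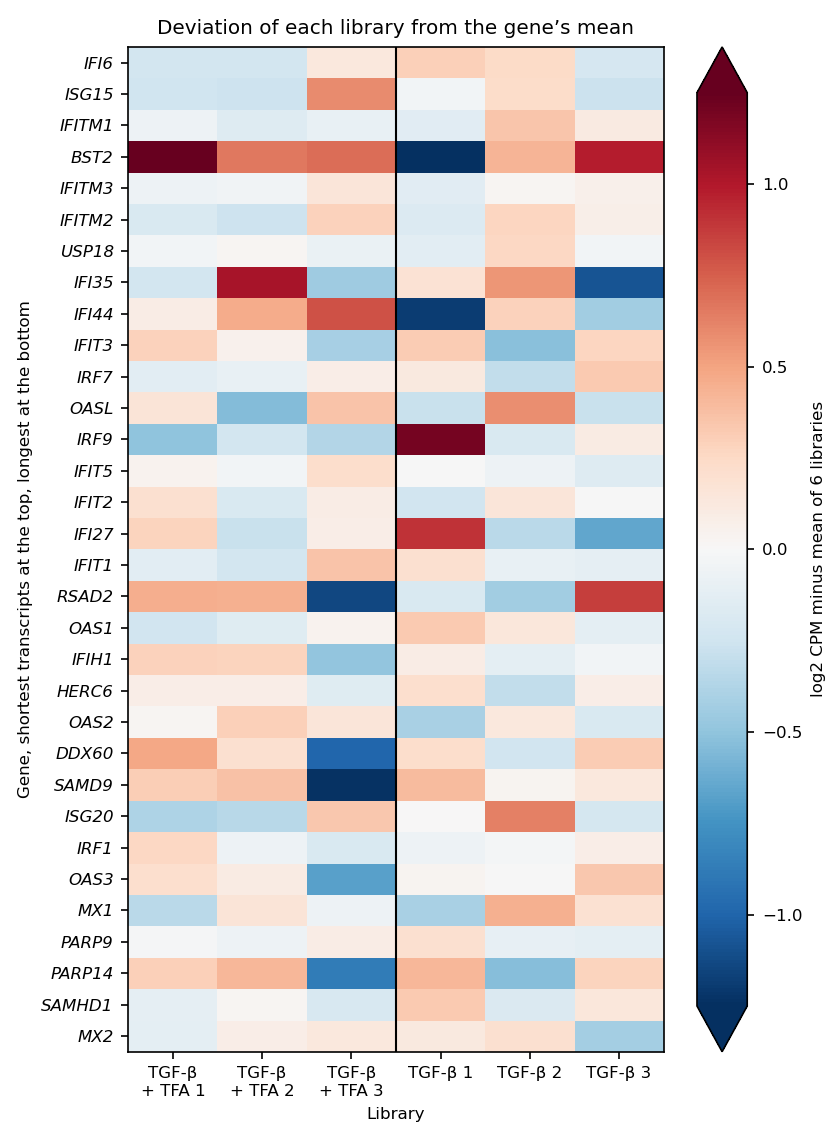
Log2 CPM of the 32 genes tested, as the difference from each gene's mean over the 6 libraries. Genes of short transcripts are at the top and long transcripts at the bottom, by length inferred from counts and FPKM. The line divides TGF-β + TFA from TGF-β libraries. Among other genes, TGF-β + TFA 3 is the lowest library in RSAD2, DDX60, SAMD9, OAS3 and PARP14 and the highest in IFI44 and ISG15.

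The position of the low values was set out against the inferred transcript length, since TGF-β + TFA 3 differed from the other libraries along it. Longer and shorter refer here to this inferred length, which is not an annotated one and orders some genes differently. MX2 had the longest inferred length of the 32 genes. Its longest transcript in GENCODE 29 has 4064 bases, against 8437 for PARP14. Across the 32 genes, the deviation of a library from the gene's mean correlated with log2 transcript length at r = -0.013, 0.071 and -0.42 in TGF-β + TFA 1 to 3 and 0.33, -0.32 and 0.035 in TGF-β 1 to 3, as a description across genes that share these libraries. The 16 genes of longer transcripts had median deviations of 0.053, 0.095 and -0.17 in TGF-β + TFA 1 to 3 and 0.16, -0.058 and 0.086 in TGF-β 1 to 3. The 16 genes of shorter transcripts had -0.046, -0.12 and 0.11 in TGF-β + TFA 1 to 3 and -0.085, 0.23 and -0.022 in TGF-β 1 to 3, so TGF-β 2 lay furthest from 0 in the shorter genes and TGF-β + TFA 3 in the longer ones. The median fitted change between the groups was -0.075 in the longer genes and -0.048 in the shorter ones. What part transcript length had in single genes was not tested.

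IRF9, IRF7 and IRF1 are transcription factors of the pathway. IRF9 carries the DNA contact of the complex it forms with STAT proteins, IRF7 amplifies interferon production, and IRF1 acts also downstream of interferon-γ. IRF9 (chromosome 14, 24161265 to 24166565) had the lowest fitted change of the set. It had 114, 143 and 108 counts in TGF-β + TFA libraries and 417, 148 and 180 counts in TGF-β libraries. In TMM-scaled CPM, these were 1.82, 2.204 and 2.00 with TFA and 5.98, 2.26 and 2.78 without, so the groups did not overlap, by a margin of 2.204 with TFA against 2.26 without. In FPKM they did overlap, at 0.454, 0.555 and 0.429 with TFA and 1.4995, 0.543 and 0.687 without. The fitted change of -0.87 (SE 0.38, interval -1.75 to 0.0062) had an unadjusted p of 0.0513 and an adjusted p of 0.9997 in edgeR. Without TGF-β 1 the change was -0.33. The whole of the longest IRF9 transcript lies within exons of AL136295 (ENSG00000259529) on the same strand. That gene had 698, 622 and 227 counts with TFA and 747, 723 and 757 counts without. The sum of both genes had a change of -0.52 (interval -1.15 to 0.11, unadjusted p 0.0923, edgeR); how the counts were divided between them was not tested.

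IRF7 had 2.64, 2.73 and 2.63 FPKM in TGF-β + TFA libraries and 3.10, 2.24 and 3.59 FPKM in TGF-β libraries, a log2 fold change of -0.11 (SE 0.19). Its TFA values lay between the lowest and the highest TGF-β value. IRF1 had 1.06, 0.849 and 0.661 FPKM with TFA and 0.828, 0.828 and 0.928 FPKM without, a change of 0.011 (SE 0.17, interval -0.39 to 0.41). The antisense gene IRF1-AS1 overlaps 1716 exonic bases of IRF1, and the sources used here do not give whether counting used strand. XAF1, which binds the apoptosis inhibitor XIAP, was all but silent, with 3, 0 and 0 counts with TFA and 0, 0 and 9 without.

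**Figure D4:**
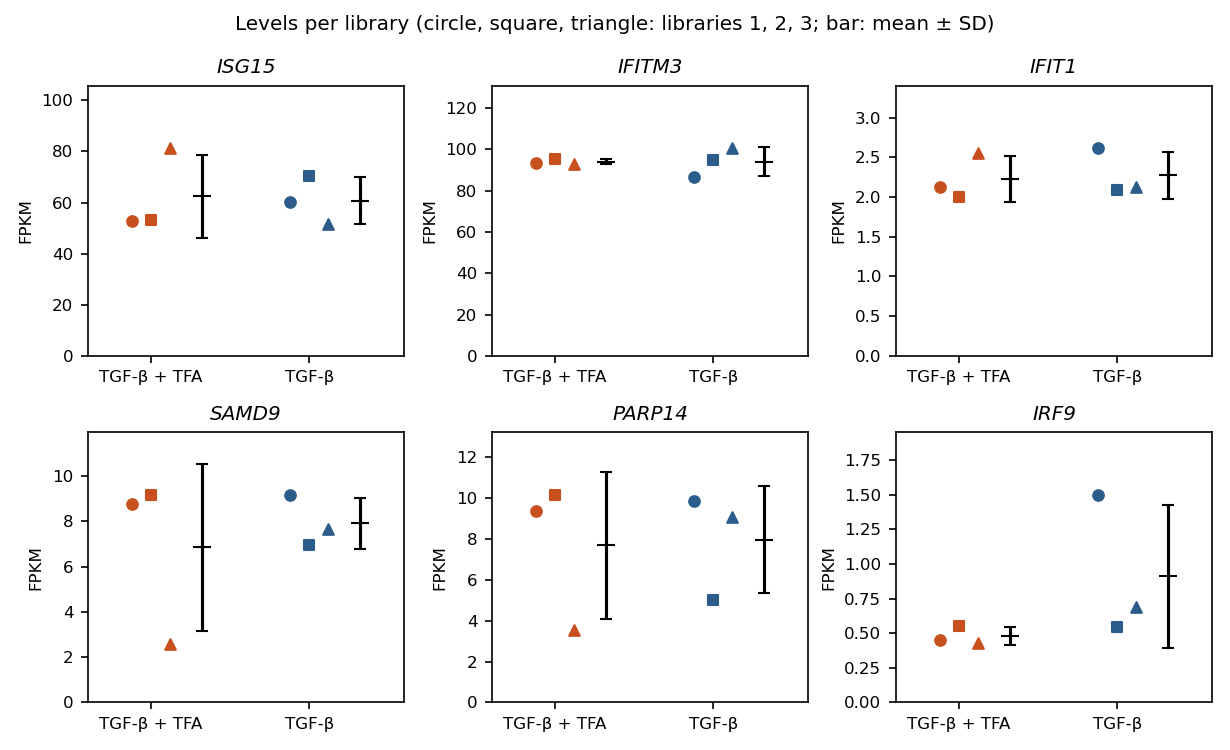
FPKM per library of 6 interferon-stimulated genes, with TGF-β + TFA at the left and TGF-β at the right of each panel; circles, squares and triangles are libraries 1, 2 and 3 and bars are mean ± SD (n = 3). The groups overlap in each panel, and single libraries set much of the spread: TGF-β + TFA 3 in ISG15 and SAMD9, and TGF-β 1 in IRF9. In PARP14, TGF-β + TFA 3 and TGF-β 2 are both low.

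The genes upstream and other targets of the pathway were counted from 4 lists of 106 genes, of which 84 had a row and 80 were tested. Of these 80, 0 were called in either direction, 3 had an unadjusted p under 0.05 (0.0109% and 1.83% of all genes tested) and 65 had an interval within 2-fold either way. Of 21 interferon genes listed, 1, IFNE, had a row, at 0.221 ± 0.105 FPKM with TFA and 0.137 ± 0.090 FPKM without (SD, n = 3 each). The receptors were present: IFNGR1, a subunit of the interferon-γ receptor, had 97.7 ± 1.1 FPKM with TFA and 101 ± 4.7 FPKM without, and IFNAR1, of the type I receptor, had 6.01 ± 1.21 and 6.04 ± 1.27 FPKM (SD, n = 3 each). Among the 14 receptors, kinases, STATs and SOCS inhibitors, 7 fitted changes were above 0 and 7 below 0, with a median of -0.0017. STAT2, the partner of IRF9, averaged 2.17 ± 0.61 FPKM with TFA and 2.63 ± 0.26 FPKM without, a change of -0.27 (SE 0.18). By library STAT2 had 2.52, 2.53 and 1.46 FPKM with TFA and 2.77, 2.34 and 2.80 FPKM without, lowest in TGF-β + TFA 3. JAK1 and TYK2 had changes of -0.099 (SE 0.17) and 0.0022 (SE 0.12).

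The other receptor subunits were measured as closely. IFNAR2 had a fitted change of 0.070 (SE 0.16), IFNLR1 of 0.052 (SE 0.20), IL10RB of 0.012 (SE 0.17) and IFNGR2 of -0.18 (SE 0.13), and none of these 4 passed the test. Of the 14 sensing genes, which detect foreign nucleic acid or relay the signal, 4 had fitted changes above 0 and 10 below 0, with a median of -0.083. Over all genes tested, 51.9% lay above 0. The summed level of the sensing genes was 62.8, 64.5 and 46.2 FPKM in TGF-β + TFA 1 to 3. In TGF-β 1 to 3 it was 60.7, 59.2 and 59.2 FPKM, so only TGF-β + TFA 3 lay below the TGF-β libraries. The part of that library in the split was not tested. IRF3, the factor that starts interferon transcription, averaged 9.13 ± 0.60 FPKM with TFA and 8.35 ± 0.93 FPKM without (SD, n = 3 each). DHX58, the sensor LGP2, had groups that did not overlap, with 14, 17 and 16 counts in TGF-β + TFA libraries and 34, 28 and 34 counts in TGF-β libraries. Its change was -0.88 (SE 0.45), and its unadjusted p was 0.0915 (edgeR).

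**Figure D5:**
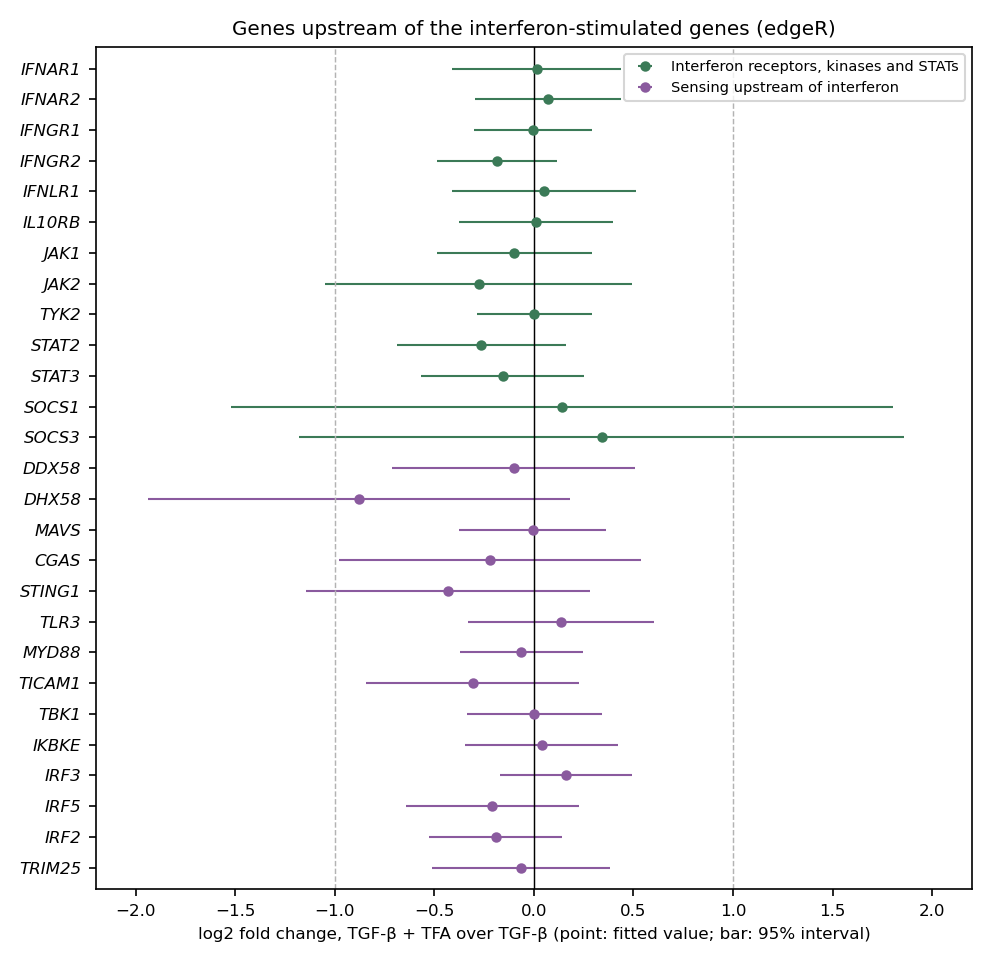
Fitted log2 fold change of 13 receptor, kinase, STAT and SOCS genes (green) and 14 sensing genes (purple), TGF-β + TFA over TGF-β (edgeR, 3 libraries a group). Points are fitted values, bars 95% intervals and dashed lines 2-fold; every bar crosses 0.

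In the list of 57 other interferon-induced genes, 51 were tested, with 24 fitted changes above 0, 27 below 0 and a median of -0.0036. In 3 of them the unadjusted p was under 0.05, and none had an adjusted p below 0.9997 in edgeR. TRIM22, an antiviral ubiquitin ligase, had 53, 49 and 54 counts in TGF-β + TFA libraries and 29, 28 and 29 counts in TGF-β libraries, a change of 1.01 (SE 0.35, unadjusted p 0.0226). The TRIM22 groups stood apart with little spread, though at 0.124 ± 0.007 FPKM with TFA and 0.0596 ± 0.0016 FPKM without. Counting error alone makes counts of this size vary more than that, so the small spread is no measure of precision. PARP12, an ADP-ribosyltransferase, had 5.40, 5.07 and 4.42 FPKM with TFA and 6.23, 6.62 and 6.31 FPKM without, a change of -0.34 (SE 0.12, unadjusted p 0.0211). APOL1, an apolipoprotein that lyses trypanosomes, had 1.56, 1.17 and 0.960 FPKM with TFA and 1.66, 1.86 and 1.95 FPKM without, a change of -0.54 (SE 0.19, unadjusted p 0.0226). TRIM26 was the fourth gene of this list whose groups did not overlap in TMM-scaled CPM, with a change of -0.067 (SE 0.11). Thus 1 of 51 genes lay higher and 3 of 51 lower without overlap, where 4.58% and 3.33% of all genes did.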

How the data were processed

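Poly(A) RNA of 6 libraries was sequenced, with strand kept by dUTP labelling and molecular identifiers in the adapters, per the labels' protocols. Tools named in the submitters' processing notes, without roles, are StringTie 1.3.4d, HISAT2 2.0.4 and cutadapt 1.9, with GRCh38. The deposited table gives the authors' FPKM and estimated counts per gene and library. The estimated counts deposited by the authors are whole numbers, possibly derived from coverage, in which case counting error is understated; whether the identifiers were used is not stated there.

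The members and gene lists were chosen with earlier results of these data known. The counts were tested in edgeR 4.0.16 (R 4.3.3) with filterByExpr, TMM, group as the only term, the 2-sided quasi-likelihood test and Benjamini-Hochberg adjustment over 18265 genes; genes under an adjusted p of 0.05 were called. A standard error is the log2 fold change over the square root of F. The code was tested on simulated data. Full values were given for genes of at least 5 FPKM in either group, for groups that do not overlap, for an unadjusted p under 0.05, and for IFIT1, ISG15, MX1, IFI6, IFI27, IRF1, IRF7 and IRF9. Of the pathway lists, receptors, STAT2, JAK1, TYK2 and IRF3 were named, and genes by the same 2 rules on overlap and p; 1 further gene is not reported here. Alternatives used DESeq2 1.42.0 and limma 3.58.1, and the offsets along transcript length used the length inferred from counts and FPKM. Replicate libraries differed by more than sampling noise (chi-square per degree of freedom at least 12.0, or 3.01 at 4 counts per fragment), so each library counted as 1 replicate. Each labelled hour held 1 library per group, so no test within an hour was possible.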

Additional observations from a re-analysis of the deposited data

How the results depend on the processing

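Under the alternatives run (no filter on low counts, DESeq2 size factors, the DESeq2 Wald test, limma-trend on log2(FPKM + 0.5) over genes of at least 1 FPKM, a replicate block, offsets along transcript length, each library left out, and TGF-β + TFA 3 and TGF-β 1 left out together), 0 interferon-stimulated genes and 0 pathway genes were called. The lowest adjusted p of an interferon-stimulated gene was 0.887, without those 2 libraries. With 1 library left out, 0 to 2 of 32 genes had an unadjusted p under 0.05 in edgeR. Of all 19010 to 19152 genes tested there, 310 to 506 did. The count was 2 without those 2 libraries (823 of all 18644 genes) and 1 with length offsets (402 of all 18265 genes). The median log2 fold change, -0.0602, was -0.0257 with the replicate block, 0.00725 without those 2 libraries and between -0.0796 and -0.0149 with 1 library left out. Genes whose groups did not overlap numbered 1 (7.91% of all genes did), against 2 in limma (6.98%), 15 without those 2 libraries (37.8%) and 2 to 7 with 1 library left out (14.1% to 19.9%), where fewer libraries overlap less easily. The genes called over the whole table numbered 2, against 13 by DESeq2, 1 with the replicate block and 1 to 3 with 1 library left out.

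Of 183 gene results under the alternatives that kept all libraries, 176 kept their direction; without those 2 libraries 21 of 32 did, and with 1 library left out 148 of 192. Directions turned for PARP9 with no filter (-0.000874), for IFIT1 (-0.0245) and PARP9 (-0.0164) in limma, for IFI27 (0.0574) and HERC6 (0.0082) with the replicate block, and for IFITM3 (-0.00211) and HERC6 (0.0116) with length offsets. Without TGF-β + TFA 3 and TGF-β 1 they turned for IFIT1 (-0.0892), IFIT2 (-0.0731), IFIT3 (0.237), IFI27 (0.541), IFITM3 (-0.107), ISG15 (-0.272), HERC6 (0.17), RSAD2 (0.094), SAMD9 (0.237), DDX60 (0.272) and PARP14 (0.424). With 1 library left out, the direction turned for 23 genes: DDX60 (-0.401 to 0.229), HERC6 (-0.138 to 0.104), IFI27 (-0.417 to 0.566), IFI35 (-0.416 to 0.627), IFIH1 (-0.0514 to 0.299), IFIT1 (-0.182 to 0.12), IFIT2 (-0.0373 to 0.16), IFIT3 (-0.291 to 0.104), IFITM2 (-0.29 to 0.013), IFITM3 (-0.0354 to 0.0658), IRF1 (-0.139 to 0.102), IRF7 (-0.27 to 0.00128), ISG15 (-0.244 to 0.229), ISG20 (-0.556 to 0.0104), MX1 (-0.396 to 0.0107), MX2 (-0.16 to 0.16), OAS3 (-0.372 to 0.0259), OASL (-0.222 to 0.325), PARP14 (-0.293 to 0.252), PARP9 (-0.0847 to 0.116), RSAD2 (-0.357 to 0.391), SAMD9 (-0.483 to 0.137) and USP18 (-0.159 to 0.0535). Other than through fewer libraries, the cause was not tested. Sums of overlapping genes were chosen after seeing the data.

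Same-numbered libraries deviated together by r = 0.040, -0.12 and -0.13 over 18265 genes. No pairing by these numbers, which coincide with the labelled hours, was thus seen. TGF-β + TFA 3, the library furthest from its replicates, correlated best with TGF-β 2 (0.21). Such a library can mask a pairing, so these values cannot exclude one. Few counts stand behind several wide intervals, such as 14 to 67 for IFI35 and 17 to 57 for IFI44.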
